A study of Mus musculus with 2 samples.

Results

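The genes described here are 10 imprinted genes of growth control, H19, Igf2, Igf2r, Dlk1, Meg3, Grb10, Peg3, Plagl1, Ndn and Mest, chosen by name and not by their values. Of the 10, 9 had at least 1 named probe on the array and these 9 genes had 18 probes, out of 27235 named probes for 20660 genes in all. H19 was not matched to a probe by accession and was not analysed here. The samples were pre CFU-E, the early erythroid progenitors sorted from bone marrow of femora and tibiae by surface markers as c-Kit+, Sca1-, CD150+ and endoglin+ cells that were Lin-, FCgRII/III-/Lo and CD41Lo. WT donors and ESAM-KO donors, the latter lacking endothelial cell-selective adhesion molecule from the germline, were C57BL/6 mice of 8 to 12 weeks. Both genotypes had been given 1 injection of 5-FU, a drug that kills cycling marrow cells, at 120 mg/kg and were studied on day 8, so that every value is from marrow in recovery and no untreated array was part of the comparison. Cells of 3 mice were pooled for each genotype and hybridised to 1 array, which leaves 1 value per genotype with no spread between animals. No p-value is therefore given, and the limit of 2-fold is a description of size only.

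At many imprinted genes, only the copy inherited from 1 parent is active, often because an imprinting control region carries DNA methylation from the egg or the sperm on 1 copy only. Whether the genes listed here were expressed from 1 copy in these cells was not measured. Depending on the domain, the methylated copy of a gene can be the silent or the active one. Many of these genes act on growth in opposite directions: paternally expressed genes such as Igf2 tend to promote it and maternally expressed genes such as Igf2r and Grb10 tend to restrain it. In blood, a group of imprinted genes is known for its expression in quiescent long-term stem cells, and the IGF pathway acts on the survival and proliferation of erythroid progenitors. Neither parental copy can be told from the other on these arrays, so a signal is the sum of both.

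Among the 9 genes, Grb10 was 4.17-fold higher on the ESAM-KO array, Igf2r, Dlk1, Ndn and Mest were within 2-fold, and Igf2, Meg3 and Peg3 were not well above background on either array. Plagl1 gave different answers at different probes: its brightest probe was within 2-fold, while 2 of its 4 probes were at background on the WT array and clearly detected on the ESAM-KO array. Taking the brightest probe of each gene, 6 of the 9 had a ratio and 1 of the 6 (16.7%) was past 2-fold, where 15.4% of 14136 genes across the array were past 2-fold in either direction and 6.99% were past 2-fold higher. The count of 1 was thus near the share in all genes. The median log2 ratio of the 6 genes was -0.14, with 2 genes above 0 and 4 below, beside a median of -0.02 over the 12615 genes measured on both arrays. Without scaling between the arrays, the median of the 6 genes turned to 0.18 and that of all genes to 0.30.

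**Figure D1:**
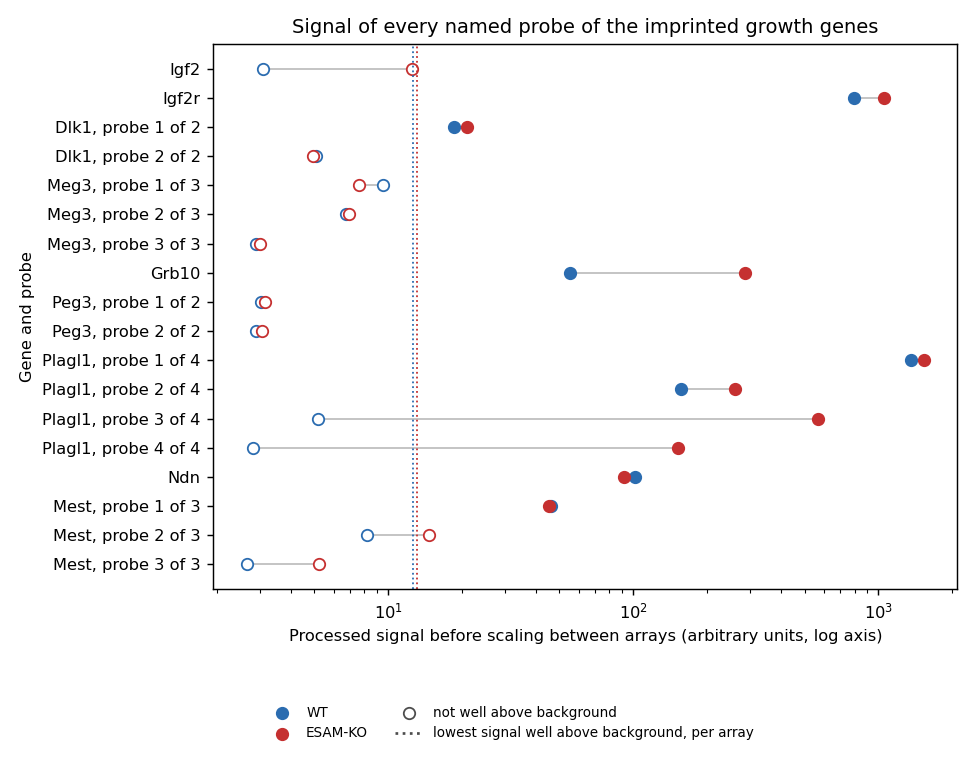
Processed signal of the 18 named probes of 9 imprinted growth genes (log axis, arbitrary units, before scaling) on the WT array (blue) and the ESAM-KO array (red), with open circles where most spots of the probe were not well above background and dotted lines at the lowest signal that was. Igf2, Meg3 and Peg3 sit at or left of the dotted lines on both arrays, while Grb10 and probes 3 and 4 of Plagl1 show wide gaps, with the ESAM-KO array to the right.

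The arrays themselves set the limits of these values. The 75th percentile of signal was 201.4 in WT and 251.1 in ESAM-KO, and dividing by it took 0.32 off each log2 ratio of ESAM-KO over WT. The lowest signal well above background was 12.6 and 13.2, the 308 negative control spots had median signals of 2.93 and 3.08, and their highest signals were 7.16 and 15.2. Of the spots, 57.3% and 61.1% were well above background and 0 were saturated. Both arrays lay on the same slide and were read in the same scan. Esam, the targeted gene, had a signal of 27.4 in WT and 20.6 in ESAM-KO (log2 ratio -0.73, scanner error 0.31). It was above background on both, and whether its probe lies in the deleted stretch is not given in the sources used here, so this signal does not check the label. The scanner error here is the error that the image software attached to the spots' signals, carried to the log2 ratio. It covers the reading of 1 array and nothing of the mice, the sort or the amplification.

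Grb10 encodes an adaptor protein that binds the activated insulin and IGF1 receptors and dampens their signal. Its only named probe (accession NM_010345, A_55_P1955457, a single spot) gave 55.0 in WT and 285.4 in ESAM-KO, well above background on both. The log2 ratio after scaling was 2.06 with a scanner error of 0.22. Of the 12615 genes measured on both arrays, 65 had a log2 ratio at or above that of Grb10, itself included. Among the 3154 measured genes in the same signal quartile, 7.93% were past 2-fold higher. The value stayed past 2-fold in all 11 alternative treatments of the data, between 1.29 with another background correction and 2.38 with no scaling. That correction, normexp, adds an offset of 50 to the signals. The offset by itself narrows the ratios of dim probes, here and wherever this correction is used below. A bulk array cannot tell more Grb10 RNA per cell from more cells that contain it, which holds for every gene below. No second probe of Grb10 was there to compare with the first, and among the 3056 genes with more than 1 probe measured on both arrays the probes of 1 gene spanned a median of 0.47 and, at the 90th percentile, 1.61 in log2 ratio.

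Plagl1 (also called Zac1) encodes a zinc finger transcription factor that is expressed from the paternal copy and is known to act on a network of other imprinted genes. Its 4 probes all carried the accession NM_009538, with 1 spot each. The brightest (A_55_P1961965) read 1358 in WT and 1531 in ESAM-KO (log2 ratio -0.15, scanner error 0.20). A dimmer probe (A_55_P2153251) read 157.1 and 261.2 (log2 ratio 0.42, scanner error 0.21). Both probes were thus detected in both genotypes and within 2-fold.

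The remaining 2 probes of Plagl1 behaved differently. One (A_55_P1961968) read 5.16 in WT, near the negative controls, and 565.6 in ESAM-KO. With the WT value set to the lowest signal well above background, it was at least 36.1-fold higher on the ESAM-KO array. The other (A_52_P532456) read 2.80 and 152.8 and was at least 9.75-fold higher. Both bounds stayed past 2-fold in every alternative that could give them, from 3.21 to 6.46 and from 1.59 to 5.45 on the log2 scale, where the top of each range is the ratio of the signals themselves with no filter on dim probes.

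Such a split is uncommon on these arrays. Of the 18366 named probes with a ratio or bound, 1 reached the larger bound of Plagl1, which is that probe itself, and 19 reached the smaller. Among 3816 genes with several probes whose brightest probe was measured and within 2-fold, 110 had at least 1 other probe bounded past 2-fold higher and 3 had at least 2, Plagl1 among them. These counts were made after the values of Plagl1 were seen and are a description. If any probe of a gene was allowed to count, 2 of the 6 growth genes with a ratio were past 2-fold higher, Grb10 and Plagl1. Of all 14144 genes with a ratio at any probe, 9.63% were. The mean of its 4 probes, with the bounds counted at their value, gave Plagl1 a log2 ratio of 2.18. Where on the transcript each probe lies, and whether the 4 read the same isoforms, is not given in the sources used here, so the difference between probes and a difference between isoforms cannot be told apart.

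Imprinting at many genes rests on CG dinucleotides near a promoter, the sites where methylation is placed. The stretches just before the annotated starts of Grb10 and Plagl1 are therefore shown, 250 bases each, from RefSeq on GRCm38.p6, written along the strand of the gene, 5′ to 3′, with each CG in capitals. The RefSeq table lists 2 starts for Grb10, which lies on the minus strand of chromosome 11, and 1 for Plagl1, which lies on the plus strand of chromosome 10. The first is Grb10 at chr11:12037421-12037670, the second is Grb10 at chr11:12027972-12028221, and the last is Plagl1 at chr10:13090582-13090831.
Grb10 upstream start: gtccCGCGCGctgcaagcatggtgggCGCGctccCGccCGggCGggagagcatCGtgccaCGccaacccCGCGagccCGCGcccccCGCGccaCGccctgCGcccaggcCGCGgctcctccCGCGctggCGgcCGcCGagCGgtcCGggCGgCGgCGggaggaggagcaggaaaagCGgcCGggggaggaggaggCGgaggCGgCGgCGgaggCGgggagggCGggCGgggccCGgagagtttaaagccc
Grb10 downstream start: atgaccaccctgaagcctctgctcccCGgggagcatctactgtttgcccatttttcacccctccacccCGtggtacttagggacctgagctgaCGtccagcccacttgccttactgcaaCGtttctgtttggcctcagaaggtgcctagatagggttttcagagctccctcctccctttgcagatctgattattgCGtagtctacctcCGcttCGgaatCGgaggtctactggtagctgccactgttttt
Plagl1 start: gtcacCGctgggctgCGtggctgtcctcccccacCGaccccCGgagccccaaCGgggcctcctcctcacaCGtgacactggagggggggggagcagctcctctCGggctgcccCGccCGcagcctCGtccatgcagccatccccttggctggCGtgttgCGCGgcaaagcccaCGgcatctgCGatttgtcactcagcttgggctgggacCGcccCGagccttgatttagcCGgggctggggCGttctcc

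The stretch before the upstream Grb10 start held 40 CG, a number reached by 1.31% of the 32851 stretches of the same length in the table. The downstream Grb10 start had 8 CG (as many or more in 43.0% of stretches) and Plagl1 had 19 (19.7%), where the median was 6. Over all 9 genes, 12 of 16 stretches were above that median, beside 46.3% of all stretches. Genes with several starts count more than once, and 2 of the 12 are Mest stretches that overlap almost entirely. The letters GATA, the core that GATA factors such as the erythroid regulator GATA1 recognise, were searched on both strands and stood in 4 of the 16 stretches, among them once in that of the downstream Grb10 start, beside 53.6% of all stretches. TGCCGC, the core letters recognised by ZFP57 when methylated, stood on either strand in 4 of the 16, among them once in that of Plagl1, beside 8.68% of all. Of these 4, 2 belong to Mest starts whose stretches overlap almost entirely, so that they count the same letters. A match of letters is a description of the sequence. Methylation was not measured in these samples, and a probe does not tell which start a transcript used. Whether any of these stretches lies in an imprinting control region was not examined.

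Among the receptors, Igf2r binds IGF2 at the cell surface and carries it to the lysosome, which removes the ligand. Its probe (NM_010515) was printed in 10 spots, all well above background on both arrays. The spots read 712.8 to 874.3 with a mean of 795.3 in WT, and 984.3 to 1149.3 with a mean of 1054.3 on the ESAM-KO array. The raw signals did not overlap, but most of that gap was the difference in brightness between the arrays. After scaling, the log2 ratio was 0.09 with an SD of 0.07 between spots (range 0.03 to 0.22) and a scanner error of 0.20. The ratio was 0.41 with no scaling and -0.04 with the arrays set to their medians, so that its sign rested on the scaling. Spots of 1 array share a single RNA sample, and their SD is technical.

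Igf2, the ligand itself and the classical paternally expressed growth factor of the fetus, had 1 probe (NM_010514). It read 3.08 in WT and 12.6 in ESAM-KO, not well above background on either, so no ratio is given. The ESAM-KO value lay below the highest negative control of that array. Igf2 RNA was thus not detectable in either pool at the sensitivity of these arrays, which does not show that it was absent.

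Dlk1 and Meg3 neighbour each other in 1 imprinted domain, where Dlk1 is paternal and encodes a transmembrane protein with EGF-like repeats, and Meg3 is a maternally expressed long non-coding RNA. Dlk1 (NM_010052) was read by a probe just above background, 18.5 in WT and 21.1 in ESAM-KO. The log2 ratio was -0.13 with a scanner error of 0.39, the widest error of the 6 measured genes, and it turned to 0.18 with no scaling. The other Dlk1 probe was not above background, at 5.10 and 4.94. All 3 probes of Meg3 were at background, the brightest at 9.49 and 7.62 and the next at 6.72 and 6.94. Peg3, a paternally expressed zinc finger gene that takes part in cell death and in maternal behaviour, was at the level of the negative controls at both of its probes (NM_008817), with 3.03 and 3.15 at one and 2.89 and 3.05 at the other.

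**Figure D2:**
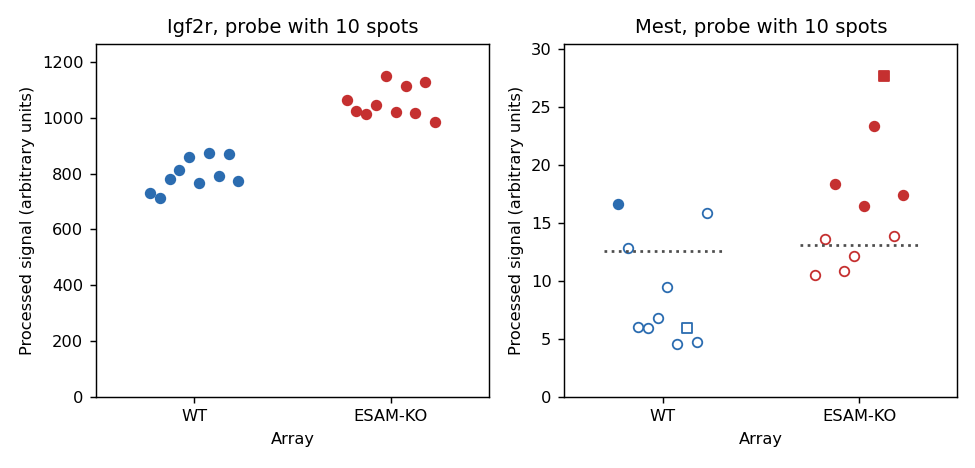
Processed signal (arbitrary units, linear axes from 0) of each of the 10 spots of the repeated probes of Igf2r and Mest on both arrays, filled where a spot was well above background, square where the spot was left out as an outlier, with dotted lines at the lowest signal well above background. The Igf2r spots form tight groups of 712.8 to 874.3 and 984.3 to 1149.3, while the Mest spots scatter around the dotted lines.

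Ndn encodes necdin, a MAGE family protein that restrains proliferation and is known in blood for holding stem cells in quiescence. Its probe (NM_010882) read 101.9 in WT and 91.3 in ESAM-KO. The log2 ratio of -0.48 was the lowest of the 6 genes and more than its scanner error of 0.21, yet within 2-fold, and it stayed below 0 under every alternative, between -0.61 and -0.16.

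Mest encodes a protein of the alpha/beta hydrolase fold and is expressed from the paternal copy. Its brightest probe (NM_001252292) was nearly as bright in ESAM-KO (45.4) as in WT (46.2). Scaled to each array's brightness, this came to -0.34 in log2 ratio with a scanner error of 0.25. A second probe (NM_008590), printed in 10 spots of which 9 were used, averaged 8.19 and 14.7. Of those 9 spots, 1 was well above background in WT and 4 in ESAM-KO, and their log2 ratios ran from -0.97 to 2.04. A probe at this brightness thus moved by several fold between spots of the same 2 RNA samples. The last probe read 2.66 and 5.23 and was not above background.

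**Figure D3:**
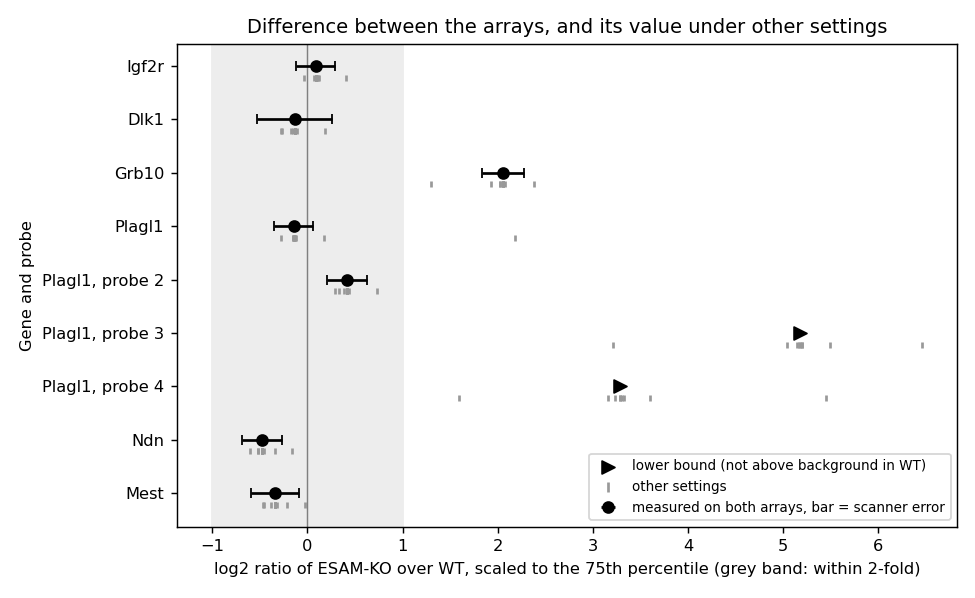
Scaled log2 ratio of ESAM-KO over WT for each probe with a ratio, where circles are probes measured on both arrays with the scanner error as bars, triangles are lower bounds, grey ticks are the values under other settings and the band covers differences within 2-fold. Grb10 and probes 3 and 4 of Plagl1 stay right of the band at every tick, and the tick of Plagl1 at 2.18 is the mean of its 4 probes.

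**Figure D4:**
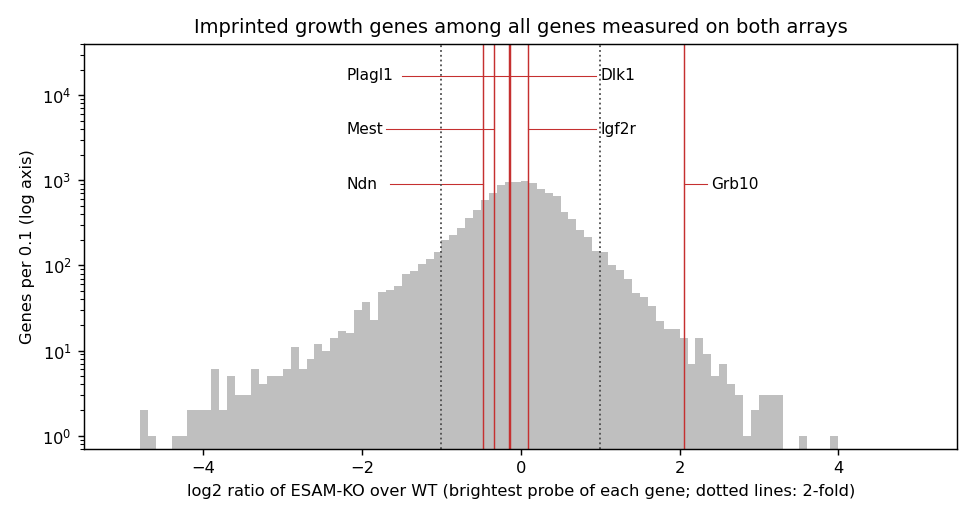
Number of genes (log axis) by log2 ratio of ESAM-KO over WT at the brightest probe, over the 12615 genes measured on both arrays, with red lines at the 6 imprinted growth genes. Grb10 at 2.06 lies in the right tail, and the other 5 lie between -0.48 and 0.09 in the centre.

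Imprinted genes tend to lie in clusters, here called domains, so the neighbours of each gene were read as well. In the Grb10 domain, Ddc, which encodes the enzyme that makes dopamine and serotonin from their amino acid precursors, read 15.1 and 38.5 at its brightest probe (log2 ratio 1.03). A second Ddc probe for another transcript (NM_001190448) went the other way, from 23.1 to 8.54 and at least 2.19-fold lower, and the mean of both was -0.05. The brightest Ddc probe came within 2-fold with the arrays set to their medians (0.90), with quantile normalization (0.90) and with the other background correction (0.34). Cobl, on the other side, had no ratio. Grb10 thus stood in a domain with 1 readable neighbour, whose probes opposed each other.

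In the Igf2r domain, Airn, the paternally expressed non-coding RNA that is transcribed across Igf2r in the opposite direction and silences it on that copy, read 214.0 in WT and 672.3 in ESAM-KO (log2 ratio 1.33). A second Airn probe was at background, at 10.4 and 6.42. Because the labelled material was made from double-stranded cDNA, RNA of Airn and unspliced RNA of Igf2r cannot be told apart by strand. Slc22a3, another neighbour, was at -0.35 in log2 ratio and Slc22a2 was at background. Igf2r itself, at 0.09, and Airn were thus not at similar ratios.

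In the Igf2 and H19 domain as listed here, neighbours under different control regions were not told apart. Of its 14 neighbours, 11 had a ratio, with a median of 0.07, and 1 was past 2-fold higher, beside 6.99% of all genes. That gene was Phlda2, a maternally expressed restraint on placental growth, which read 7.20 and 63.7 and was at least 4.07-fold higher. It was past 2-fold in 9 of 10 alternatives and 0.55 in log2 ratio with the other background correction. Cdkn1c, the maternally expressed cell cycle inhibitor p57, read 10.9 and 12.1 and was not above background on either array. The neighbours of Dlk1 and Meg3 with a ratio, Mirg at 0.18 and Dio3 at 0.21, were within 2-fold.

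In the Peg3 domain, Zim1, a zinc finger gene, went from 24.6 to 3.43, at least 2.33-fold lower, and its second probe was at background. It came within 2-fold with no scaling (-0.90) and with the other background correction (-0.42). In the Ndn domain, 4 of 6 neighbours with a named probe had a ratio and Peg12 alone was past 2-fold, at -1.02 with 94.5 and 58.0, but its second probe was at 0.12. Peg12 was named after its values were seen. Magel2, at 0.31, and Ube3a, at 0.39, were within 2-fold. Copg2, which overlaps Mest from the opposite strand, was at 0.25 in log2 ratio at its brighter probe and 3.03-fold lower at its dimmer one, and RNA of Mest and Copg2 cannot be told apart by strand where they overlap. At the brightest probes, Grb10 was the only growth gene past 2-fold, and Ddc was its only neighbour with a ratio. No other pair of growth gene and neighbour could thus both be past 2-fold, and Ddc did not keep that size under every setting.

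**Figure D5:**
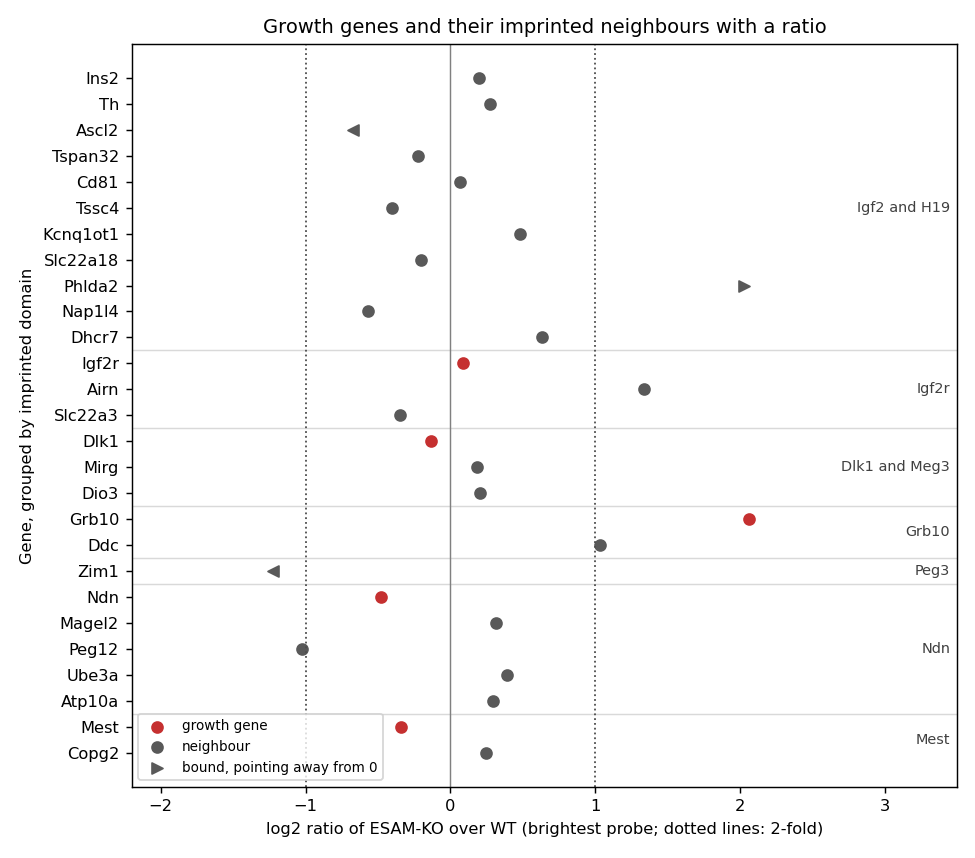
Scaled log2 ratio of ESAM-KO over WT at the brightest probe for the growth genes (red) and their imprinted neighbours (grey) that had a ratio, grouped by domain, with triangles for bounds and dotted lines at 2-fold. Igf2, Meg3, Peg3 and H19 have no point, Plagl1 has no neighbour in the list, and most points lie within 2-fold.

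Across a wider list of 65 other imprinted genes, 62 had a named probe and 46 a ratio. Of the 46, 7 were past 2-fold higher and 4 lower, 23.9% in all, where 6.99% and 8.43% of all genes were past 2-fold higher and lower. Their median log2 ratio was 0.01. The count was not stable, and neither were the values over all genes. The other background correction left 3 genes past 2-fold, with 5.11% of all genes past it in place of 15.4%. Removing the scaling left 8 higher and 0 lower. Among all genes past 2-fold it left 28.8% lower in place of 54.7%. The largest values were those of Peg10, a gene derived from a retrotransposon and needed for the placenta, which went from 10.8 to 161.3 and was at least 10.3-fold higher, with a second probe at least 4.94-fold higher. Impact, a regulator of translation under amino acid stress, read 22.0 and 162.0 (log2 ratio 2.57), with a second probe at least 1.77-fold higher. With the other background correction, Peg10 was at 1.51 and Impact at 1.18 in log2 ratio.

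Gnasas1, the antisense RNA of the Gnas locus, read 45.6 and 192.4 (log2 ratio 1.76). Gnas, which encodes the stimulatory G protein subunit, was detected on both arrays, at 9844 and 8406 (log2 ratio -0.55). Gab1, a docking protein of receptor tyrosine kinases, read 25.3 and 75.3 (2.39-fold higher). Gnasas1 was thus past 2-fold higher while Gnas was within 2-fold, and here too strand was not kept. With the other background correction, whose offset narrows ratios of dim probes, Gnasas1 (0.90) and Gab1 (0.46) came within 2-fold. On the lower side, Pon2, a lactone-hydrolysing enzyme, read 489.7 and 269.2 (log2 ratio -1.18), and Herc3, a ubiquitin ligase, read 98.1 and 57.2 (log2 ratio -1.09). Both came within 2-fold with no scaling, at -0.86 and -0.78.

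Around Igf2r and Grb10, 16 further genes of the IGF pathway were read, and 9 of them had a ratio. Of the 9, 1 was past 2-fold higher and 2 lower (33.3%, beside 15.4% of all genes), and the median of the measured genes was 0.22. Among the ligands and receptors, Igf1 read 20.6 and 45.0 (log2 ratio 0.81, with its other 3 probes at background), the IGF1 receptor Igf1r read 385.5 and 241.8 (-0.99), and the insulin receptor Insr read 141.7 and 315.8 (0.84). The 2 other Insr probes gave 0.70 and 0.73, so that all 3 probes lay on the same side. Igf1r and Insr encode the receptors to which Grb10 protein binds, and neither was past 2-fold at these probes. Igf1r passed it with the arrays set to their medians (-1.12) and with cyclic loess (-1.02), and Insr (1.16) and Igf1 (1.13) passed it with no scaling.

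The 3 genes past 2-fold were 2 of the IGF binding proteins and 1 protein that binds mRNA. Igfbp4, which holds IGFs away from their receptors, read 53.6 and 208.1 (log2 ratio 1.64). Igfbp5, another of that family, went from 129.9 to 12.2, at least 12.3-fold lower. Igf2bp2, which binds Igf2 mRNA and other mRNAs, read 100.9 and 31.5 (3.99-fold lower), and its second probe was at least 9.23-fold lower. Igfbp2 and Igfbp7, at log2 ratios of 0.14 and 0.14, were within 2-fold, and Igfbp1, Igfbp3 and Igfbp6 were at background. The 3 genes stayed past 2-fold with the other background correction, at log2 ratios of 1.06, -1.36 and -1.03.

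Of the genes that set or keep imprints, 10 of 13 were measured on both arrays, 2 were past 2-fold higher (beside 6.99% of all genes) and 0 lower, with a median of -0.01. Hells, a chromatin remodeller needed for DNA methylation, read 41.2 and 150.3 (log2 ratio 1.55), and Dnmt3a, which places new methylation, read 21.4 and 67.0 (1.33). Both were within 2-fold with the other background correction, at 0.73 and 0.41, where the offset narrows ratios of probes this dim. Ctcf, the insulator protein of the Igf2 and H19 domain, read 1082 and 1099 (-0.30). Trim28, the cofactor through which ZFP57 keeps imprints, read 2153 and 2354 (-0.19), and Dnmt1, which copies methylation at replication, read 564.6 and 415.9 (-0.76). These 3 were within 2-fold.

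Markers of the sorted cells and of other marrow cells were read beside the growth genes. Beside each count past 2-fold below, 6.99% of all genes were past 2-fold higher and 8.43% lower. All 11 erythroid progenitor markers were above background on both arrays, with summed scaled signals of 92.4 in WT and 84.0 in ESAM-KO (multiples of each array's 75th percentile). Their median log2 ratio was -0.36. The sorted pools thus carried the RNA of their labelled lineage in both genotypes. Of 12 stem cell markers, 7 were above background in WT and 8 in ESAM-KO at their brightest probes, with sums of 5.87 and 5.37. Of the 9 with a ratio, 2 were past 2-fold higher, Hlf at least 7.58-fold and Ctnnal1 at least 2.26-fold. The 1 past 2-fold lower was Ly6a, at least 5.79-fold. Procr and Hoxb5 were at background on both arrays, while Mecom was so at its brighter probe and at least 2.09-fold higher at its other probe. A second probe of Cd34 was 2.61-fold lower. The stem cell list thus held genes past 2-fold in both directions. Of 10 endothelial markers, 4 and 6 were above background with sums of 12.2 and 10.8, of which Kdr alone made 10.2 and 9.34. That Kdr probe, a single spot, read 2056 and 2345, while another, printed in 10 spots, was at background on both arrays. Of the 6 endothelial markers with a ratio, 3 were higher, Vwf 2.42-fold, Tek at least 2.14-fold and Stab2 at least 2.02-fold. Pecam1 was 3.98-fold lower, and Cdh5 was at background on both arrays. The endothelial list thus held genes past 2-fold in both directions, with its sum carried by 1 probe of 1 gene. Of 12 stromal markers, 7 were above background on each array with sums of 5.02 and 5.02, of which Col1a2 alone made 3.75 and 4.22. Col1a1 and Pdgfra were at background on both. Of the 8 with a ratio, 1 was past 2-fold higher, Cxcl12 at least 2.29-fold, and 1 lower, Pdgfrb at least 11.1-fold. Of 9 macrophage markers with a named probe, 5 and 6 were above background with sums of 34.0 and 30.3, of which Csf1r alone made 32.5 and 29.1. That Csf1r probe read 6554 and 7310, while another read 63.2 and 124.6 and the last was at background. Of the 5 macrophage markers with a ratio, 1 was past 2-fold higher, C1qa at 2.28-fold, and 1 lower, Vcam1 at 7.36-fold. A second Vcam1 probe was 2.04-fold lower, and Mrc1 and Mertk were at background on both arrays. The part of cell composition in the values of the growth genes was not tested.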

How the data were processed

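Total RNA of each sorted pool was amplified to double-stranded cDNA, labelled with Cy3 and hybridised to a SurePrint G3 mouse array in 1 colour. The deposited intensity values are the processed signals that Agilent Feature Extraction 10.10.1.1 gave per spot after background subtraction (per the file headers and the labels). The authors' value table for the series, deposited as intensity too, served as an alternative. The 59305 non-control spots formed 55680 probes, and 27235 of them (48.9%) were named by matching their RefSeq accession to a table on GRCm38.p6. The array design cites an older build, so no probe was placed by coordinates. The stretches before annotated starts were read from a RefSeq table on GRCm38.p6 and carry its coordinates.

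Each signal was divided by its array's 75th percentile and set on the log2 scale, spots of a probe were averaged, and 254 outlier spots were left out. A probe counted as above background if over 50% of its spots were well above it. If it was so on 1 array, the difference was given as a bound, the bright value against the higher of the dim array's lowest signal well above background and the probe's own. Where that fell under 1-fold, none was given. The brightest probe stood for a gene. With 1 array per genotype no test was made, precision is limited by that number, and 2-fold was the limit. Named genes were the 10 growth genes, Esam, up to 10 genes past 2-fold per list, and Igf1, Igf1r, Insr, Cdkn1c, Gnas, Ctcf, Dnmt1 and Trim28. Neighbours and probe splits were added after values were seen. The genes, lists and limits were all chosen with earlier results of these data known.

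Alternatives covered no scaling, scaling to the median or to probes detected on both arrays, quantile and cyclic loess normalization and normexp with an offset of 50 (limma 3.58.1 in R 4.3.3), no filter on dim probes, no bounds, outliers kept, the mean of probes, and limits of 1.5-fold, 3-fold and 4-fold. Scripts ran in Python 3.11.15 and were tested on simulated data.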

Additional observations from a re-analysis of the deposited data

How the results depend on the processing

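No paired analysis was possible because WT and ESAM-KO have 1 array each, and for the same reason no array could be left out. Of 126 alternative values of the counts, medians and Esam, 98 moved little and 28 moved. Of 332 for single genes and probes, 280 moved little, 51 moved and 1, that of Ddc with the mean of its probes, at -0.0494, turned from past 2-fold to the other side of 0. Among genes within 2-fold, the sign of Igf2r turned with scaling to the median (-0.04), and those of Dlk1 (0.18), Plagl1 (0.17), Ctcf (0.02) and Trim28 (0.13) with no scaling. The growth genes past 2-fold numbered 2 in place of 1 with no filter on dim probes, which adds Igf2 at background, and with the mean of probes or any probe, which add Plagl1. With no scaling, medians became 0.18 for the growth genes, 0.33 for other imprinted genes, 0.54 for the IGF pathway and 0.31 for imprint control genes, the IGF count became 5 in place of 3 and Esam -0.41. Among all genes past 2-fold, 54.7% were lower, against 28.8% with no scaling and 66.8% with scaling to the median. With normexp, the counts became 3 other imprinted and 0 imprint control genes, 5.11% of all genes, 67.3% of them lower, and Esam became -0.26. With no filter, 5 IGF and 4 imprint control genes were past 2-fold and the IGF median was -0.13. The imprint control median was -0.23 with quantile normalization. At 1.5-fold, 18 other imprinted, 6 IGF, 4 imprint control genes and 33.2% of all genes were past the limit. At 3-fold, these were 4 other imprinted genes, 0 imprint control genes and 5.81% of all genes, and at 4-fold, 3 other imprinted, 1 IGF and 0 imprint control genes and 3.18%. The cause of these shifts was not tested. Signal over background limits what can be read, since 6424 named genes, Igf2, Meg3 and Peg3 among them, were not above background on either array.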
